A study of Homo sapiens with 6 samples.

Results

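The enzymes that build, interconvert and recycle purine and pyrimidine nucleotides were followed in LA1-55n cells after induction of a hairpin against glycine decarboxylase. The list names 33 enzymes of de novo synthesis, salvage and deoxynucleotide supply. Each was represented by the probe set annotated to its symbol, the brightest one where a gene had several, and 27 of the 33 were measured among 14779 named genes. GART, PAICS, ADSS2, CAD, NME1 and TK1 had no named probe set and were not analysed here. Each of the 27 measured genes had 1 probe set. No filter on low values was applied, so all 27 entered the test.

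LA1-55n is an established human neuroblastoma line. The 3 shGLDC99 arrays came from cells with a tet-on hairpin against GLDC and the 3 shGFP arrays from cells with a tet-on hairpin against GFP, the control. Both populations had received 0.5 µg/ml doxycycline for 7 days, so the inducer and an expressed hairpin are common to both groups. The labels give 1 hairpin against GLDC and do not say whether the carrying cells were a clone or a pool. The arrays of each group carry the letters a, b and c. The design text describes 3 independent samples per group and gives no pairing, but nothing in the labels tells whether these came from separate cultures. The p-values therefore speak only of the spread among these arrays, which may be technical.

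Glycine decarboxylase opens the glycine cleavage system of mitochondria, which breaks glycine down and loads its carbon onto tetrahydrofolate. De novo purine synthesis assembles the ring on ribose phosphate, taking in a whole glycine molecule at the GART step and folate-borne formyl groups at the GART and ATIC steps. Thymidylate synthase (TYMS) takes a methylene group from folate to turn dUMP into dTMP. Pyrimidine rings are built from glutamine, bicarbonate and aspartate without glycine or folate, and salvage enzymes return free bases and nucleosides to the pool. Many of these genes are known as transcriptional targets of MYC family proteins, and several of those of deoxynucleotide supply, though not RRM2B, as E2F targets that peak in S phase.

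Values are the deposited intensities per probe set, read as log2. Differences are shGLDC99 minus shGFP on that scale, tested with limma. P-values were adjusted across the 14779 genes (Benjamini-Hochberg), and rose or fell is written where the adjusted p was under 0.05. GLDC itself had levels of 5.98, 5.65 and 5.93 in shGLDC99 arrays, against 7.85, 7.90 and 7.81 in shGFP arrays, a 4.01-fold lower level (limma adjusted p = 0.00101). Array medians lay between 4.28 and 4.33, and the median gene had a mean level of 5.09. That median is a mark of relative brightness and not a measured background. Of 13 measured neuroblastoma markers, 10 lay above the median gene, among them GATA3, HAND2, PHOX2A and DDC, while DBH, HAND1 and STMN2 lay below it. Of 16 measured markers of fibroblasts, endothelium, leukocytes, epithelium and glia, 1 lay above it, THY1. The 3 measured fibroblast markers had a mean level of 3.79 to 3.89 in shGLDC99 arrays, against 3.57 to 3.64 in shGFP arrays. Of these LUM rose, but it lay below the median gene and is not shown to exceed background. The 4 measured epithelial markers also stood apart, at 3.80 to 3.90 in shGLDC99 arrays against 3.67 to 3.74 in shGFP arrays, and 0 rose or fell. Among the 13 neuroblastoma markers 3 fell (ISL1, GATA2 and GATA3) and 2 rose (CHGB and GAP43), where 4.8% of all genes fell and 3.72% rose. The part of these markers in the results was not tested.

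TYMS, GMPS, PPAT and UCK2 fell in shGLDC99 cells, each to between 80.0% and 83.0% of the shGFP level, and 0 of the 27 nucleotide genes rose. These 4 are 14.8% of the measured enzymes, where 4.8% of all genes fell and 3.72% rose. They stand in 4 different branches: thymidylate synthesis, the last step to GMP, the committed step of purine synthesis, and uridine and cytidine salvage. Without the adjustment, 11 of the 27 had a limma p under 0.05 and a lower value, where 13.2% of all genes did, and 4 had one and a higher value, where 11.1% of all genes did. The mean level of 26 of the 27 lay above that of the median gene, so the shares over all genes include many dimmer genes. When the dimmest 40% of genes were left out, 14.1% of those kept fell and 10.9% rose, against 8 and 2 of the 27. At an unadjusted limma p under 0.05, 20.5% of those kept were lower and 16.9% higher, against 11 and 6 of the 27. The median difference of the 27 was -0.13, against -0.01 for all genes. In 11 of the 27, all shGLDC99 arrays lay below all shGFP arrays, which held for 16.3% of all genes. In 6 of the 27 they lay above, which held for 14.5% of all genes. Leaving out any 1 of the 6 arrays (shGLDC99 a, b or c, or shGFP a, b or c) left 0 of the 4 past the threshold, with adjusted p between 0.0711 and 0.134. Testing all 31135 probe sets, named or not, also left 0, with adjusted p between 0.0587 and 0.0787.

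Bases before the annotated start are shown for TYMS, PPAT and UCK2, the genes that fell and hold a motif match there. The sequences are RefSeq's for GRCh38.p14, 5′ to 3′ on the gene's strand, each 250 bases long and ending at the last base before the start, except that for PPAT 30 bases around its match are given, since an annotated start of PAICS lies within the 250. Capitals mark matches, on either strand, to the E2F motif (TTTCCCGC, TTTCGCGC, TTTGCCGC or TTTGGCGC), the E-box bound by MYC family proteins (CACGTG), the CCAAT box (CCAAT) and the NRF1 motif (GCGCA directly followed by TGCGC).
TYMS, chr18:657403-657652, plus strand: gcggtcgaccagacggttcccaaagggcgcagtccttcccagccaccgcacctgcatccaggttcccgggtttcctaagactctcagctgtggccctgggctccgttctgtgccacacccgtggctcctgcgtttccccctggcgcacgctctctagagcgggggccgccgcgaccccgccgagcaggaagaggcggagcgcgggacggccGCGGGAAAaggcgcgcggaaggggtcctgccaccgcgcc
PPAT, chr4:56435780-56435809, minus strand: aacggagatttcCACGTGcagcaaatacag
UCK2, chr1:165827364-165827613, plus strand: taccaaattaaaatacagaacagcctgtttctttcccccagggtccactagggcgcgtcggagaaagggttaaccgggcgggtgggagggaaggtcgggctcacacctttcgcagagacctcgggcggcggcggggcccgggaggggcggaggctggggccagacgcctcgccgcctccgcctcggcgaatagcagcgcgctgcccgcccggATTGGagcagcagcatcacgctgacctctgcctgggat
The TYMS sequence holds 1 E2F match, on the opposite strand, the PPAT sequence 1 E-box and the UCK2 sequence 1 CCAAT box on the opposite strand. The window of GMPS, the fourth gene that fell, holds no match to these letters and is not shown. In windows of 300 bases, from 250 before to 50 after the start, 24 of the 27 measured enzymes had a sequence. E2F matches stood in 3 of the 24 (TYMS, PRPS2 and DCK), or 12.5%, against 4.5% of the 10715 promoters of measured genes and 3.33% of all 27305 promoters, 1 for each gene. E-boxes stood in 4 of the 24 (PPAT, ATIC, DHODH and DCK), or 16.7%, against 9.03% of promoters of measured genes and 7.43% of all promoters. CCAAT boxes stood in 7 of the 24, or 29.2%, against 36.0% of promoters of measured genes and 35.7% of all promoters. The NRF1 motif stood in 0 of the 24, against 2.0% of promoters of measured genes and 1.36% of all promoters. A match of letters is a description of the sequence and shows no binding.

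**Figure D1:**
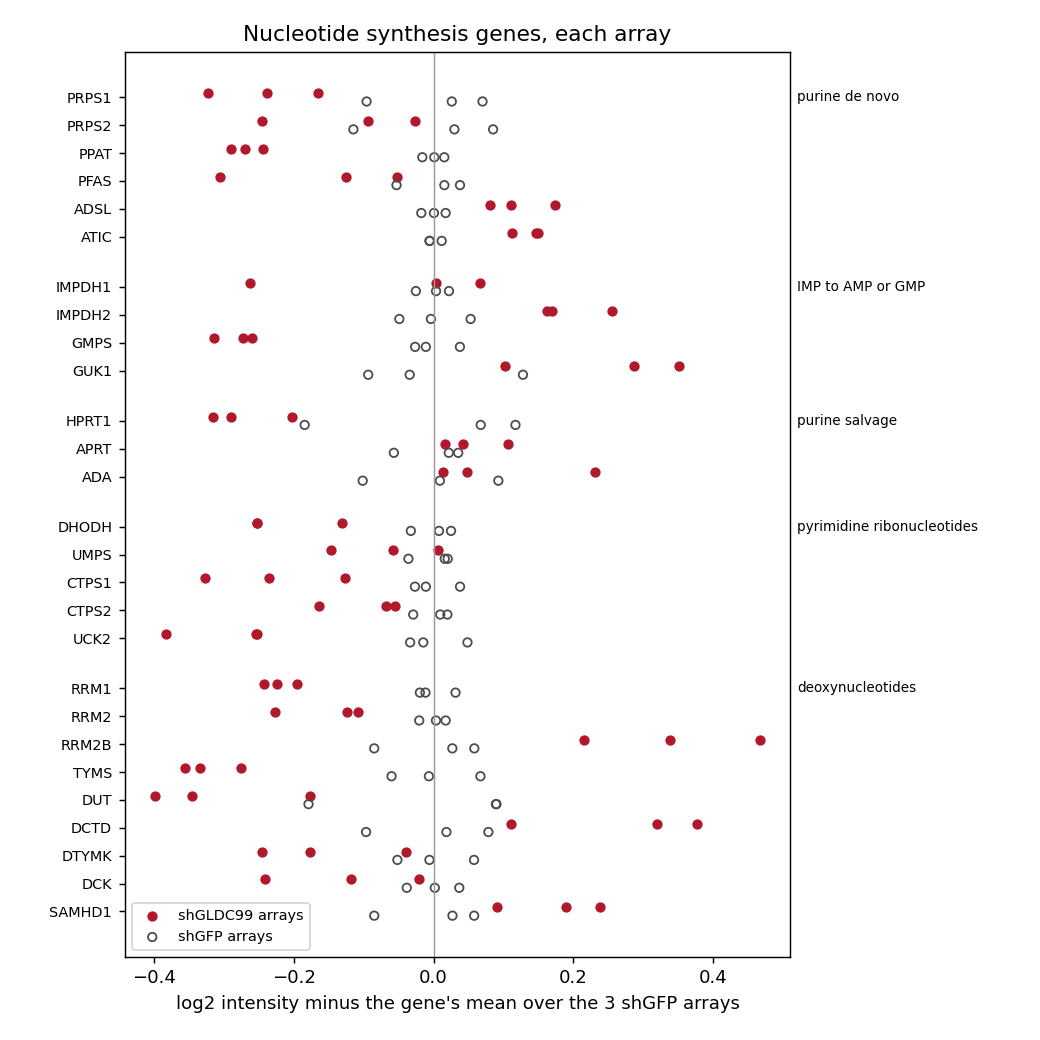
Each row is 1 of the 27 measured nucleotide genes, ordered by branch; the horizontal axis is log2 intensity minus the gene's mean over the shGFP arrays, with shGLDC99 arrays as filled points above shGFP arrays as open points. The 3 filled points lie left of all open points in 11 of the 27 genes, TYMS, GMPS, PPAT and UCK2 among them, where 16.3% of all genes did so. They lie right of all open points in 6 of the 27, RRM2B among them, where 14.5% of all genes did so.

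De novo purine synthesis begins with the PRPP synthetases and PPAT. PPAT, the amidotransferase of the committed step, had levels of 8.86, 8.88 and 8.91 in shGLDC99 arrays, against 9.17, 9.15 and 9.14 in shGFP arrays. The arrays of each group lay close together and the groups did not overlap. The difference was -0.27 ± 0.0578 (SE), or 1.20-fold lower (limma adjusted p = 0.0382). PPAT and PAICS, another enzyme of the ring, lie on opposite strands and overlap in the reference table, and PAICS was not measured here.

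PRPS1 and PRPS2 make PRPP, the activated ribose on which both purines and pyrimidines are built. PRPS1 had levels of 7.44, 7.37 and 7.28 in shGLDC99 arrays, against 7.51, 7.63 and 7.67 in shGFP arrays. All shGLDC99 arrays were lower, but the difference of -0.24 did not pass the threshold (limma adjusted p = 0.107). PRPS2 had levels of 8.15, 8.30 and 8.37 in shGLDC99 arrays, against 8.48, 8.42 and 8.28 in shGFP arrays. Its groups overlapped, with a difference of -0.12 (adjusted p = 0.466).

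The later ring-building enzymes differed in sign. PFAS, which uses glutamine after the first formyl transfer, differed by -0.16 (limma adjusted p = 0.301), with overlapping groups. ADSL, the lyase used both in the ring and on the way to AMP, differed by 0.12 (adjusted p = 0.285), and every shGLDC99 array exceeded every shGFP array. ATIC carries out the second formyl transfer from folate and closes the ring to IMP. ATIC had levels of 9.67, 9.63 and 9.67 in shGLDC99 arrays, against 9.51, 9.53 and 9.51 in shGFP arrays. The groups did not overlap, and the difference was 0.14 with a 95% interval of -0.00 to 0.27 (adjusted p = 0.209). ATIC overlaps the fibronectin gene FN1 on the opposite strand in the reference table. FN1 differed by -1.43 (limma adjusted p = 0.00164), in the opposite direction to ATIC, and whether the probe set of either gene reads the other strand was not tested.

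The steps that use glycine or folate carbon were thus read in ATIC and TYMS alone, since GART was not measured. ATIC was 1.10-fold higher without passing the threshold and TYMS fell 1.25-fold. Among the 25 measured enzymes whose steps use neither, 3 fell and 0 rose, where 4.8% of all genes fell and 3.72% rose. Of these 25, 17 had a negative difference and 8 a positive one, where 51.6% of all genes had a negative one. Their median was -0.13. With 2 genes of opposite sign on one side, no difference between the kinds of step was tested.

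IMP is turned into GMP by IMPDH and GMPS and into AMP by ADSS2 and ADSL. GMPS, the glutamine-using GMP synthetase, had levels of 9.39, 9.40 and 9.35 in shGLDC99 arrays, against 9.64, 9.65 and 9.70 in shGFP arrays. Every shGLDC99 array was lower, by more than the spread within either group. The difference was -0.28 ± 0.0597 (SE), or 1.22-fold lower (limma adjusted p = 0.0359).

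IMPDH2 and GUK1, the steps before and after GMPS, had positive differences that did not pass the threshold. IMPDH2, an IMP dehydrogenase, had levels of 8.15, 8.05 and 8.06 in shGLDC99 arrays, against 7.89, 7.84 and 7.94 in shGFP arrays. The groups did not overlap, with a difference of 0.20 (limma adjusted p = 0.121). IMPDH1 had levels of 6.18, 6.24 and 5.91 in shGLDC99 arrays, against 6.15, 6.18 and 6.20 in shGFP arrays, where shGLDC99 array c stood below the other 5. Its difference was -0.06 (adjusted p = 0.741), and 0.03 without that array. GUK1, the kinase that makes GDP from GMP, had levels of 5.28, 5.35 and 5.10 in shGLDC99 arrays, against 4.90, 5.12 and 4.96 in shGFP arrays. These levels lie near that of the median gene and the groups overlapped, with a difference of 0.25 (adjusted p = 0.172).

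Of the 3 purine salvage and breakdown enzymes 0 passed the limma threshold, where 4.8% of all genes fell and 3.72% rose. With an unadjusted p under 0.05, 1 was lower, HPRT1, where 13.2% of all genes were, and 0 higher, where 11.1% were. HPRT1, which returns hypoxanthine and guanine to IMP and GMP, had levels of 6.56, 6.58 and 6.67 in shGLDC99 arrays, against 6.69, 6.99 and 6.94 in shGFP arrays. The groups did not overlap, although shGFP array a lay next to the shGLDC99 arrays, and the difference was -0.27 (limma adjusted p = 0.140). APRT, the adenine salvage enzyme, differed by 0.05 (95% interval -0.10 to 0.21). ADA, which deaminates adenosine and deoxyadenosine, differed by 0.10 (95% interval -0.11 to 0.31).

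All 5 measured genes of pyrimidine ribonucleotide supply had a negative difference, where 51.6% of all genes did. Their median was -0.21, and 1 of them fell, where 4.8% of all genes did. UCK2, the kinase that salvages uridine and cytidine, had levels of 7.03, 6.90 and 7.03 in shGLDC99 arrays, against 7.25, 7.27 and 7.33 in shGFP arrays. The highest shGLDC99 array stood below the lowest shGFP array. The difference was -0.30 ± 0.0683 (SE), or 1.23-fold lower (limma adjusted p = 0.0459), and with each array centred on its median the adjusted p was 0.0584.

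Among the de novo enzymes of this branch, DHODH, the mitochondrial dihydroorotate dehydrogenase, differed by -0.21 (limma adjusted p = 0.101), and its groups did not overlap. UMPS, which makes UMP from orotate, differed by -0.07 (adjusted p = 0.615). The CTP synthetase CTPS1 had levels of 8.41, 8.30 and 8.21 in shGLDC99 arrays, against 8.52, 8.57 and 8.51 in shGFP arrays. All shGLDC99 arrays were lower, with a difference of -0.23 (limma adjusted p = 0.110). CTPS2, its paralogue, had levels of 7.36, 7.26 and 7.37 in shGLDC99 arrays, against 7.44, 7.39 and 7.43 in shGFP arrays. Its groups stood just apart, with a difference of -0.10 (adjusted p = 0.423). CAD, which opens this pathway, was not measured.

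Of the 9 measured deoxynucleotide genes, 6 had a negative and 3 a positive difference, where 51.6% of all genes had a negative one. In this branch 1 fell, where 4.8% of all genes did. TYMS had levels of 8.88, 8.80 and 8.82 in shGLDC99 arrays, against 9.15, 9.09 and 9.22 in shGFP arrays. The groups were separated by more than the spread within either. The difference was -0.32 ± 0.0658 (SE), or 1.25-fold lower (limma adjusted p = 0.0328). TYMS overlaps ENOSF1 and TYMSOS on the opposite strand in the reference table, and neither was measured here.

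Ribonucleotide reductase converts ribonucleotides to deoxyribonucleotides. Its large subunit RRM1 differed by -0.22 (limma adjusted p = 0.0677), and its groups did not overlap. RRM2, the small subunit of dividing cells, had levels of 8.10, 8.20 and 8.22 in shGLDC99 arrays, against 8.34, 8.30 and 8.33 in shGFP arrays. All shGLDC99 arrays were lower, with a difference of -0.15 (adjusted p = 0.203). RRM2B, the small subunit that also serves cells outside S phase, had levels of 6.46, 6.58 and 6.71 in shGLDC99 arrays, against 6.16, 6.27 and 6.30 in shGFP arrays. All shGLDC99 arrays were higher, and the difference of 0.34 was the largest in size among the 27 measured enzymes (adjusted p = 0.0600).

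The enzymes around dUMP and dTMP did not share a sign. DUT, which clears dUTP by turning it into dUMP, had levels of 4.35, 4.29 and 4.52 in shGLDC99 arrays, against 4.78, 4.51 and 4.78 in shGFP arrays. It was the dimmest of the 27, below the median gene in both groups, and its level is not shown to exceed background. Its groups overlapped, with a difference of -0.31 (limma adjusted p = 0.123). DCTD, which makes dUMP from dCMP, had levels of 7.79, 7.74 and 7.53 in shGLDC99 arrays, against 7.49, 7.32 and 7.43 in shGFP arrays. The groups did not overlap, with a difference of 0.27 (adjusted p = 0.133).

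The remaining members of the branch differed by at most 0.17 in size. DTYMK, the kinase that turns dTMP into dTDP, differed by -0.15 (limma adjusted p = 0.287), and DCK, the deoxycytidine salvage kinase, by -0.13 (adjusted p = 0.378), both with overlapping groups. SAMHD1, which breaks deoxynucleotide triphosphates down, differed by 0.17 (adjusted p = 0.212), and every shGLDC99 array exceeded every shGFP array.

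**Figure D2:**
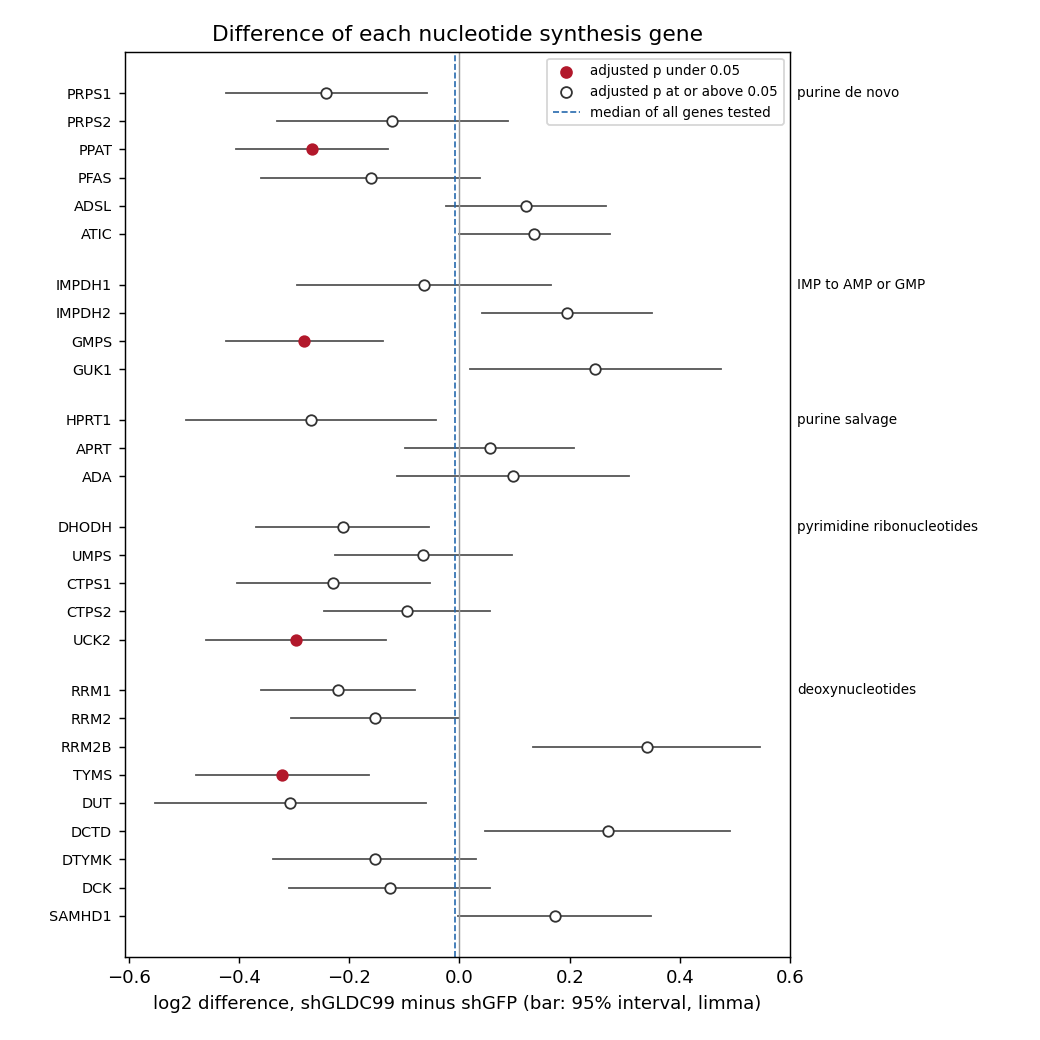
Points are the log2 difference, shGLDC99 minus shGFP, of each of the 27 measured nucleotide genes and bars its 95% interval from limma; filled points passed an adjusted p of 0.05 and the dashed line is the median of all genes, -0.01. The 4 filled points lie between -0.32 and -0.27, and RRM2B lies farthest to the right at 0.34.

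In 4 steps the list holds a pair of paralogues, and the difference of the 2 within each array was compared between groups to ask whether they differed unequally. An exact two-sided permutation test cannot give less than p = 0.1 for 3 arrays against 3, so none of the pairs could pass a threshold of 0.05. RRM2 minus RRM2B differed most between groups, by -0.49 ± 0.0662 (SE), without overlap of the groups (exact p = 0.1, adjusted over the 4 pairs 0.133). IMPDH1 minus IMPDH2 differed by -0.26 ± 0.10 (SE) and CTPS1 minus CTPS2 by -0.13 ± 0.0769 (SE), both without overlap (exact p = 0.1 for each, adjusted 0.133). PRPS1 minus PRPS2 differed by -0.12 ± 0.152 (SE), with overlapping groups (exact p = 0.5, adjusted 0.5).

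**Figure D3:**
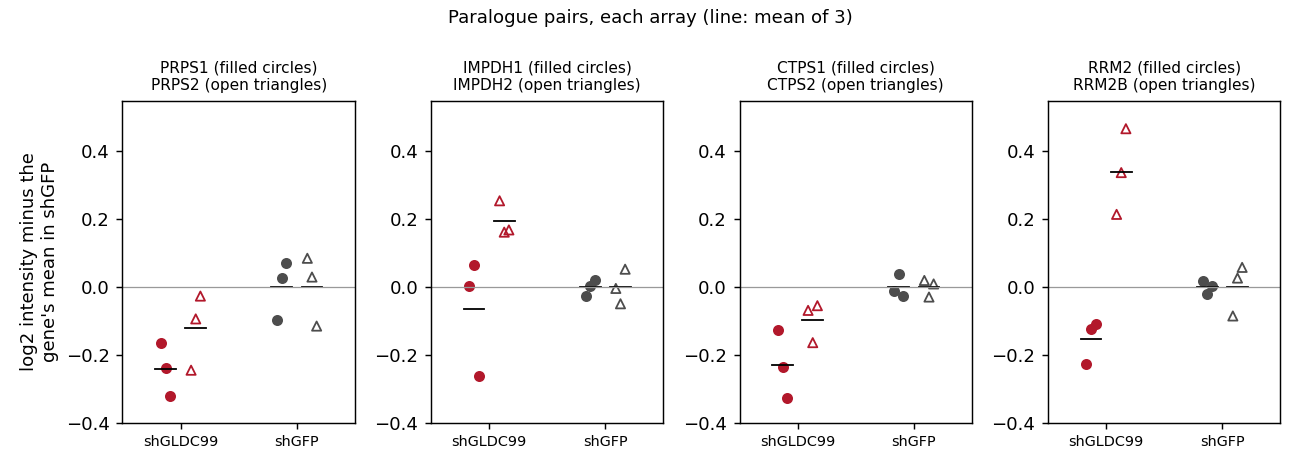
Each panel shows 1 pair of paralogues as log2 intensity minus the gene's own mean in shGFP, with shGLDC99 arrays on the left and shGFP arrays on the right of the panel and a line at the mean of 3 arrays. In shGLDC99 arrays RRM2 lay below 0 and RRM2B above it, and both CTP synthetases lay below 0 in shGLDC99 arrays.

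The rest of nucleotide metabolism was read in a list of 54 other enzymes, of which 31 were measured. Of these 4 fell (12.9%), where 4.8% of all genes did, and 2 rose (6.45%), where 3.72% of all genes did. The other 25 did not pass the threshold, and the median difference of the 31 was -0.02. GDA, the guanine deaminase, differed by -0.52, the adenylate kinases AK5 by -0.62 and AK9 by -0.47, and NUDT1, which removes oxidised purine triphosphates, by -0.46 (limma adjusted p between 0.0115 and 0.0402), and all 4 fell. XDH, the xanthine dehydrogenase that makes uric acid, rose by 0.70 (adjusted p = 0.0182) and UPP1, a uridine phosphorylase, by 0.57 (adjusted p = 0.0418). The levels of XDH were 4.54, 4.26 and 4.15 in shGLDC99 arrays, against 3.50, 3.73 and 3.62 in shGFP arrays. The level of UPP1 averaged 4.41 ± 0.0195 in shGLDC99 arrays and 3.84 ± 0.254 in shGFP arrays (SD, n = 3 each). Both genes, and AK9, lay below the median gene in every array and are not shown to exceed background. When any 1 array was left out, 1 or 2 of the 31 fell, where 1.61% to 2.21% of all genes did. In these fits 0 or 1 rose, where 1.4% to 1.62% of all genes did.

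Genes that supply the building blocks were mostly not past the threshold, which 4.8% of all genes passed as falls and 3.72% as rises. Of 16 measured genes of folate and glycine supply besides GLDC, 1 fell, methionine synthase MTR (-0.28, limma adjusted p = 0.0358), and 0 rose. The difference was above 0 in 12 of the 16, while 51.6% of all genes lay below 0. At an unadjusted p under 0.05, 3 of the 16 were higher, where 11.1% of all genes were, and 2 lower, where 13.2% were. MTHFD1 and MTHFD2 were not measured. Of 9 measured genes listed for ribose, glutamine and aspartate supply, 1 rose, asparagine synthetase ASNS (0.39, adjusted p = 0.0137), and 0 fell by limma. ASNS uses up aspartate and glutamine to make asparagine, so its rise is not that of a supplying enzyme. In this list 3 higher genes (ASNS among them) and 1 lower gene had an unadjusted p under 0.05.

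Genes of S phase and proliferation, a list that holds none of the 33 enzymes, were lower in shGLDC99 arrays throughout. All 20 listed were measured and all 20 had every shGLDC99 array below every shGFP array, which held for 16.3% of all genes. Of the 20, 16 fell by limma, where 4.8% of all genes did, and their median difference was -0.46. MCM5, a subunit of the replicative helicase, differed by -0.77 (adjusted p = 0.00286), PCNA, the sliding clamp of DNA polymerases, by -0.51 (adjusted p = 0.00924) and MKI67, the proliferation marker, by -0.40 (adjusted p = 0.0116). The mean level of the 20 genes lay between 7.71 and 7.76 in shGLDC99 arrays, against 8.16 to 8.22 in shGFP arrays. The mean level of the 27 nucleotide genes lay between 7.52 and 7.56 in shGLDC99 arrays, against 7.59 to 7.62 in shGFP arrays. In bulk samples, fewer cells in S phase and less RNA per cell cannot be told apart, and the part of either in the falls of TYMS, GMPS, PPAT and UCK2 was not tested.

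Among 17 measured regulators, 4 fell and 0 rose by limma, where 4.8% of all genes fell and 3.72% rose. The difference was negative in 14 of the 17, where 51.6% of all genes had a negative one. At an unadjusted p under 0.05, 8 were lower, where 13.2% of all genes were, and 0 higher, where 11.1% were. RBL1, a pocket protein that holds E2F factors in check, differed by -0.59 (adjusted p = 0.00814), E2F7, a repressor of the E2F family, by -0.47 (adjusted p = 0.0269) and E2F2, an activator, by -0.41 (adjusted p = 0.0317). E2F1 differed by -0.26 (adjusted p = 0.244). YAP1, the Hippo pathway coactivator, differed by -0.97 (adjusted p = 0.0131), with means of 3.82 in shGLDC99 and 4.79 in shGFP arrays that lay below the median gene and are not shown to exceed background. MYC had a low level in both groups, 3.14 in shGLDC99 and 3.13 in shGFP arrays, and MYCN was not measured.

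**Figure D4:**
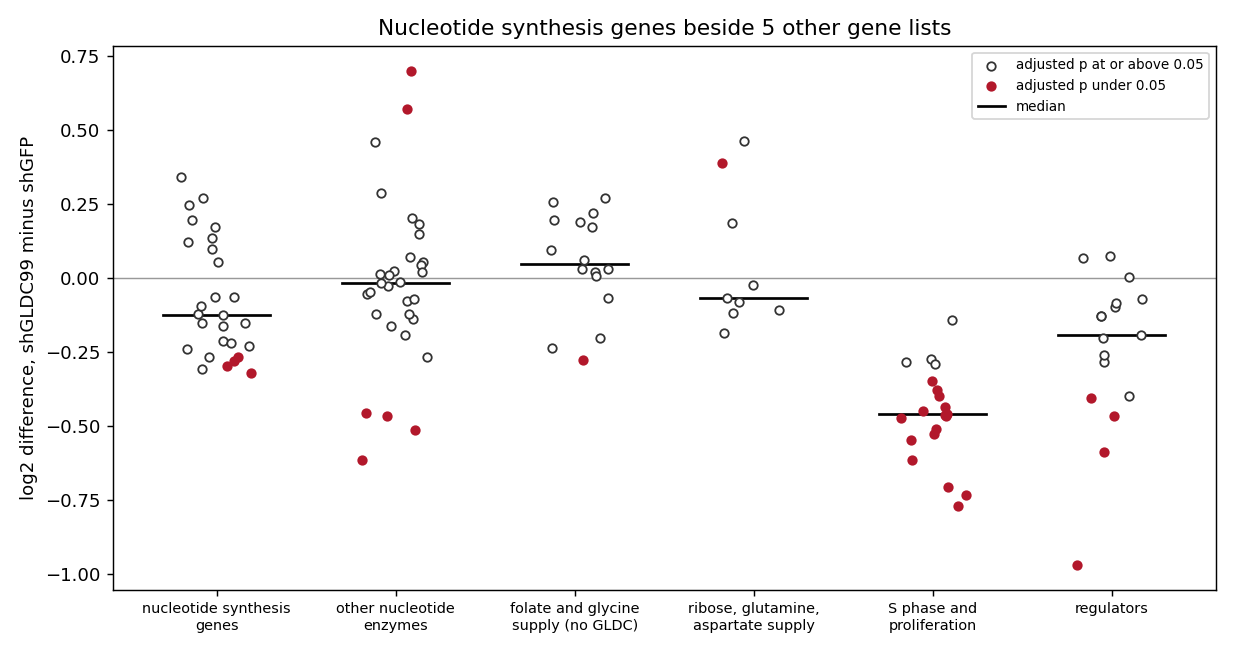
Points are the log2 differences, shGLDC99 minus shGFP, of the measured genes of 6 lists, with horizontal spread added only to separate them; filled points passed an adjusted p of 0.05 and lines are medians. The median of the 27 nucleotide genes is -0.13, between -0.02 for the 31 other nucleotide enzymes and -0.46 for the 20 genes of S phase and proliferation.

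The number of nucleotide genes called moved with the setting of the test. When limma's prior variance was let follow intensity, 10 of the 27 fell, where 9.13% of all genes did, and 5 rose, where 7.36% of all genes did. The 10 were PRPS1, HPRT1, DHODH, CTPS1, RRM1 and RRM2 beside the 4 already named, and the 5 were ATIC, IMPDH2, RRM2B, DCTD and SAMHD1. Without the dimmest 40% of genes, 8 fell (PRPS1, DHODH, CTPS1 and RRM1 beside the 4), where 14.1% of the genes kept did. In that setting 2 rose (IMPDH2 and RRM2B), where 10.9% of the genes kept did. In settings able to change it (quantile normalization, centring, array weights and each array left out), the difference of TYMS stayed between -0.35 and -0.29. In these settings 17 or 18 of the 27 genes had a negative difference, where 51.6% of all genes did in the fit as reported. The other settings leave the differences of the 27 as they were and change only the test.

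**Figure D5:**
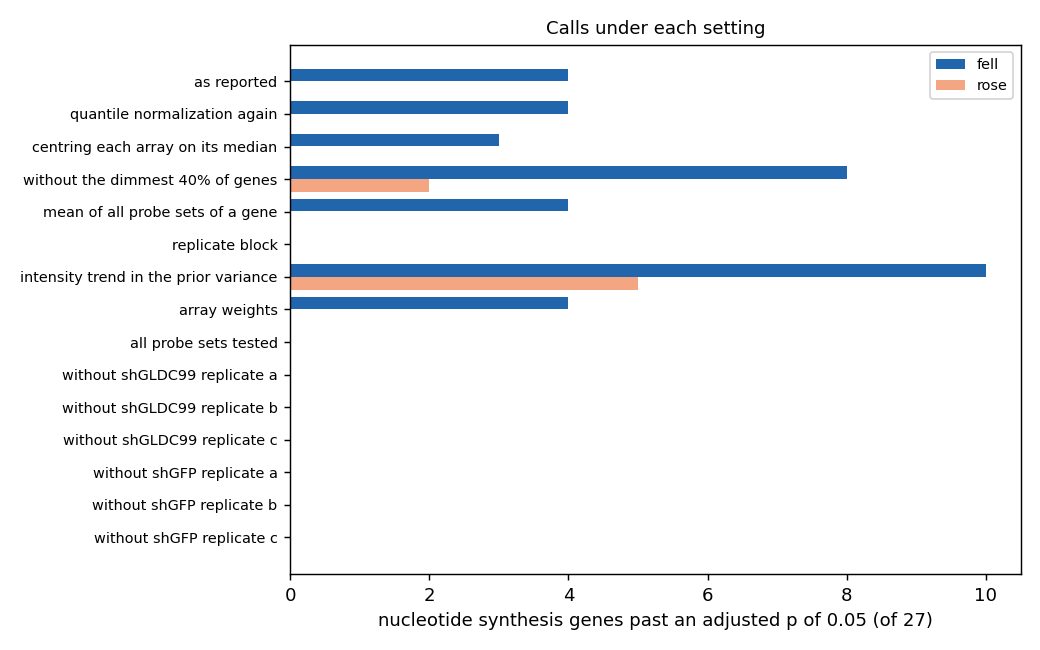
Bars count the nucleotide genes, of 27, past an adjusted p of 0.05 under each setting of the test, falls above rises. As reported 4 fell; the counts reach 10 falls and 5 rises with an intensity trend and are 0 with the replicate block, with all probe sets tested and when any 1 array is left out.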

How the data were processed

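RNA from 6 samples of LA1-55n cells was hybridised to Affymetrix Human Gene 2.0 ST arrays. The deposited values are 1 log2 intensity per probe set and array, made by the authors with Partek per the submitters' processing notes; the sources used here give neither its version nor its background correction and normalization. No source names the log base. Values reached 13.28, above 11.09, which is where natural logs of a scanner's 16-bit range end, so log2 was inferred and every fold rests on it. Of 31135 probe sets, 15098 had 1 gene symbol, 0 several and 16037 none in the platform annotation; symbols were matched to RefSeq by Entrez ID (15098 matched). The brightest probe set over the 6 arrays stood for each of 14779 genes.

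Groups came from the sample titles. limma 3.58.1 (lmFit, eBayes, no covariates) in R 4.3.3 was fitted over all genes, with Benjamini-Hochberg adjustment. Standard errors of single genes are its moderated ones. Those of the paralogue pairs are unmoderated, from the variance of the pair difference within each group. In both n is 3 per group. On simulated data with 14779 genes and 200 changed, it recovered 2.99% of genes changed by 0.3, 31.3% of those changed by 0.5 and 75.8% of those changed by 1 (log2). Of its 78 calls, 5 fell on unchanged genes. A separate simulation with no changed gene gave 0 calls. The first simulation changed 200 genes, where 1259 were called in the data, and took each gene's SD over these arrays as its true spread. With fewer changed genes the adjusted threshold is harder to pass, so these shares do not give the sensitivity of the test on these data. Alternatives were quantile normalization, median centring, a filter on dim genes, averaged probe sets, a replicate block, an intensity trend, array weights, all probe sets and leaving out each array. Precision is limited by the number of arrays. The members and lists were chosen with earlier results of these data known. The rule for named genes gave values per array for members past the threshold, for steps using glycine or folate carbon, for paralogues and for the 10 members with the largest differences, and up to 6 genes past the threshold in each other list. Promoters were RefSeq's, the first listed start of each gene, searched on both strands; plots used matplotlib 3.10.9.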

Additional observations from a re-analysis of the deposited data

How the results depend on the processing

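TYMS, GMPS and PPAT stayed past the threshold with a further quantile normalization, with arrays centred on their medians and with array weights. They also did so without the dimmest 40% of genes and with an intensity trend. UCK2 did so in all of these but centring. Averaging probe sets could not change the values of these genes, since each had 1 probe set. The median difference of the 27 nucleotide genes lay between -0.15 and -0.11 under the alternatives that could change it. These were quantile normalization, median centring, array weights and each array left out. The other alternatives leave the difference of each nucleotide gene as it was. All 4 paralogue pairs kept their sign under the alternatives run on them that could change them (quantile normalization and each array left out). Without 1 array, RRM2 minus RRM2B differed by -0.52 to -0.44, IMPDH1 minus IMPDH2 by -0.34 to -0.17, CTPS1 minus CTPS2 by -0.17 to -0.06 and PRPS1 minus PRPS2 by -0.22 to -0.03.

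Genes changed over all genes numbered 1259, against 2221 without the dimmest 40% of genes and 2438 with an intensity trend; nucleotide genes that fell numbered 8 and 10 and those that rose 2 and 5 under these settings, and other nucleotide enzymes that rose numbered 0 without the dimmest genes, since neither XDH nor UPP1 was then tested. With all probe sets tested, 0 nucleotide genes, 2 other nucleotide enzymes (lower) and 1 (higher) passed, while at an unadjusted limma p under 0.05, 10 nucleotide genes were lower (12.4% of all genes) and 4 higher (10.3%). Leaving out 1 array left 461 to 546 genes changed, 0 nucleotide genes, 1 to 2 other enzymes that fell and 0 to 1 that rose, with 7 to 9 nucleotide genes lower (10.8% to 12.5% of all genes) and 1 to 4 higher (9.51% to 10.2%) at an unadjusted p under 0.05; fewer arrays were then tested.

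The letters a, b and c were not treated as pairs: deviations of same-letter arrays from their group means correlated at -0.01, 0.02 and -0.00 over genes. With the replicate block, 229 genes changed, 0 nucleotide genes fell and 0 other nucleotide enzymes fell or rose, with 10 nucleotide genes lower (12.1% of all genes) and 4 higher (10.3%) at an unadjusted p under 0.05.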
